A study of Mus musculus with 2 samples.

Results

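The vascular endothelial growth factor (VEGF) system was described in mouse heart through 10 genes chosen by symbol, out of 55536 annotated genes in the deposited tables, 22028 of them protein-coding. They are 5 ligands (Vegfa, Vegfb, Vegfc, Vegfd and placental growth factor, Pgf), 3 receptor tyrosine kinases (Flt1, Kdr and Flt4, also called VEGFR1, VEGFR2 and VEGFR3) and 2 neuropilin co-receptors (Nrp1 and Nrp2). RNA came from heart tissue of male B6CASTF1/J mice, F1 hybrids of B6 and CAST, aged 2 months, with 300 ng of ribosomal-RNA-reduced total RNA per library and 1 library per animal. There was 1 group of 2 replicates and no second condition. Both replicates carry 1 shared donor entry in the labels while the animals are numbered apart, so treating them as 2 mice is a reading of the labels. No test between conditions could be made, and with 2 mice a 2-sided exact paired test cannot fall below p = 0.5, so levels are given for each mouse with the mean and SD.

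VEGF ligands are secreted dimers that drive the growth, permeability and survival of blood and lymphatic endothelium. Vegfa binds Flt1 and Kdr, Vegfb and Pgf bind Flt1, Vegfc binds Flt4 and, once cleaved, Kdr, and mouse Vegfd binds Flt4. Kdr carries most of the mitogenic signal in blood endothelium, Flt1 binds ligand tightly but signals weakly and is also made as a soluble trap, and Flt4 serves lymphatic endothelium. Neuropilins have no kinase domain and also bind class 3 semaphorins. In the adult heart, cardiomyocytes are a known source of Vegfa and Vegfb, and endothelial cells carry the kinases.

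Vegfa, Vegfb, Flt1 and Nrp2 have annotated forms that differ in alternative parts of their transcripts. The parts that separate the measured forms are shown first, 5′ to 3′ on the gene's strand, from the GENCODE M21 transcripts on mm10. The reference is C57BL/6 sequence, so the CAST alleles of these hybrids are not shown. The levels and shares below also come from tables on that reference. Whether reads of CAST alleles were counted as fully as those of B6 alleles was not tested. In Vegfa (chr17:46016993-46032369, minus strand), forms are named by the residues left after the signal peptide. VEGF188 holds the coding parts of exons 6 and 7 and the last exon, VEGF164 lacks exon 6, VEGF144 lacks exon 7 and VEGF120 lacks both. Capitals mark whole codons for lysine or arginine, the residues by which the longer forms hold on to heparan sulfate. Codons split by an exon boundary stay in lower case.

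Vegfa exon 6 part, chr17:46022277-46022348: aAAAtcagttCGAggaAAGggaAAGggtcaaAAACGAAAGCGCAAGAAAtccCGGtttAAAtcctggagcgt
Vegfa exon 7 part, chr17:46020991-46021122: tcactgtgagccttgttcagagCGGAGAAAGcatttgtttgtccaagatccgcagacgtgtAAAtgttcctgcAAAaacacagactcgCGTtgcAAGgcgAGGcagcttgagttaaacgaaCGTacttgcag
Vegfa last exon, coding part, chr17:46018861-46018879: atgtgacAAGccaAGGCGG

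The exon 6 part has 12 lysine or arginine codons among 23 whole codons, the exon 7 part 9 among 43 and the last coding part 3 among 6. By whole codons, the part that separates VEGF188 and VEGF144 from VEGF164 and VEGF120 is thus denser in basic codons than the exon 7 part. Its density is close to that of the short last coding part. Codons split by an exon boundary were not counted, so the order of those parts is not settled.

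In Flt1 (chr5:147561604-147726011, minus strand), the short coding form Flt1-203 reads past the end of exon 13 into the intron, and this tail replaces the later exons that encode the membrane span and the kinase. Capitals mark the GT with which the intron begins in the full-length form. In Vegfb (chr19:6982473-6987651, minus strand), VEGFB186 begins an exon earlier than VEGFB167, and capitals mark the AG at which the VEGFB167 splice ends. In Nrp2 (chr1:62703285-62818695, plus strand), an insert of 15 bases extends an exon past the GT donor in capitals, and an exon of 51 bases is included or skipped near the membrane span.

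Flt1 short-form tail, chr5:147639133-147639224: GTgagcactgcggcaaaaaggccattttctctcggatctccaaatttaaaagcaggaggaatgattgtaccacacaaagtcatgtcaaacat
Vegfb long-form part, chr19:6985496-6985596: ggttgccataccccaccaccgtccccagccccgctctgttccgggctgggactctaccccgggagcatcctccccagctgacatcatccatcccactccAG
Nrp2 15-base insert, chr1:62786302-62786316: GTgaggattttaaag
Nrp2 51-base exon, chr1:62812534-62812584: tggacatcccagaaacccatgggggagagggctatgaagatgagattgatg

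The tissue label was checked on marker genes. Levels are in TPM, transcripts of a gene per fixed number of transcripts in all, a scale corrected for length and depth. All 6 cardiomyocyte markers were between 391 and 7699 TPM, with Myh6 highest, all 10 endothelial markers were at 1 TPM or more in both mice, and 0 of 4 lung epithelial markers were, with Sftpc and Sftpa1 at 0 counts in both. The expected counts on annotated genes summed to 38963569 in mouse 1 and 44321172 in mouse 2. The 10 VEGF genes took 0.0783% and 0.0790% of them, 30491 and 35034 counts.

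The heart transcripts of the VEGF system were dominated by 2 ligands, Vegfb and Vegfa, with Nrp1, Flt1 and Kdr next and Vegfc, Pgf and Vegfd at the bottom. Vegfb was at 186 ± 8.87 TPM, Vegfa at 88.1 ± 12.3 TPM, Nrp1 at 43.6 ± 0.530 TPM, Flt1 at 32.7 ± 1.64 TPM and Kdr at 30.7 ± 0.997 TPM (mean ± SD, n = 2). Nrp2, Flt4, Vegfc, Pgf and Vegfd followed, from 7.74 ± 0.269 TPM down to 0.615 ± 0.0919 TPM. In all, 9 of the 10 genes reached 1 TPM in both mice, where 49.8% of all protein-coding genes did. Their median was 19.2 TPM against 1.085 TPM over all protein-coding genes. In whole tissue, a gene's level is set both by how many cells express it and by how much RNA each makes, and these cannot be told apart here.

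**Figure D1:**
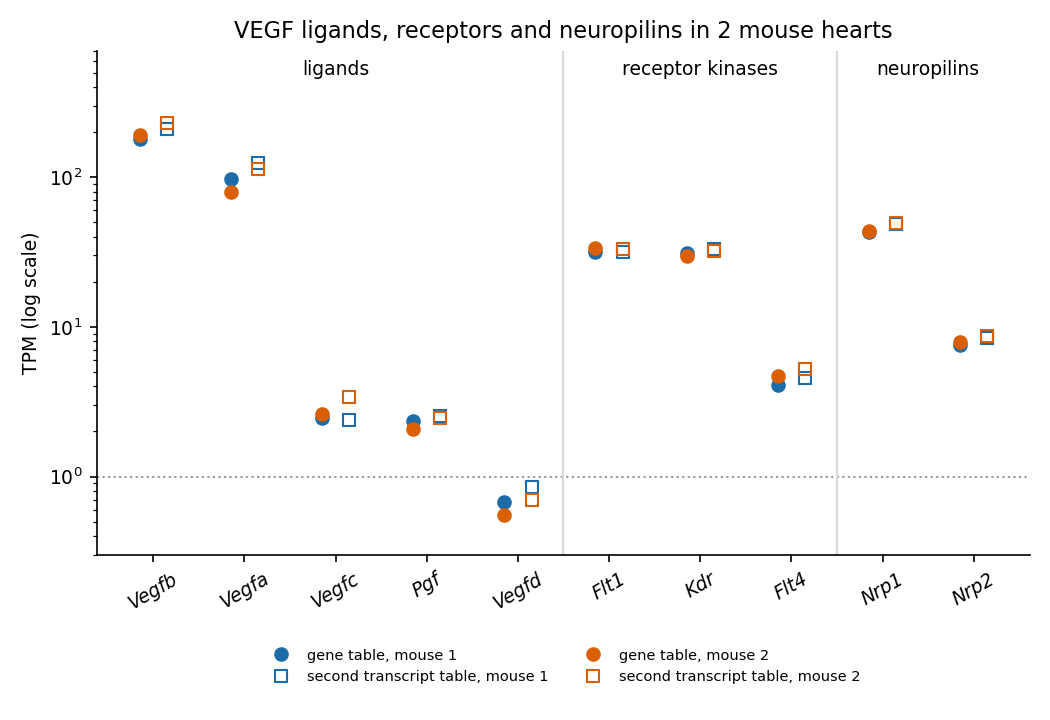
Levels of the 10 VEGF genes in TPM on a log axis, by role; filled circles are the gene table, open squares the second transcript table, blue mouse 1 and orange mouse 2, and the dotted line is 1 TPM. Vegfb and Vegfa stand above the other ligands and the receptors, and Vegfd is the only member under 1 TPM in both mice and both tables.

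Among the ligands, Vegfb, which binds Flt1 and is known in heart muscle for survival and lipid handling more than for vessel growth, was the highest. It was at 179 TPM in mouse 1 and 192 TPM in mouse 2 (6141 and 7453 counts), rank 321 of the protein-coding genes. Vegfa, the main signal for vessel growth, was at 96.8 TPM and 79.4 TPM (5800 and 5981 counts), rank 652. Both Vegfb values lay above both Vegfa values. The TPM ratio of Vegfb to Vegfa was 1.85 in mouse 1 and 2.42 in mouse 2, 1.08 ± 0.27 on the log2 scale. By counts not divided by length, the log2 ratio was only 0.20 ± 0.17.

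The lead of Vegfb also depended on which Vegfa transcripts were counted. Of the Vegfa TPM, 33.3% in mouse 1 and 29.4% in mouse 2 lay on 5 retained-intron entries with no coding sequence, which are short (463 to 874 bases) and held only 7.96% and 6.70% of the Vegfa counts. Coding Vegfa was at 64.6 and 56.0 TPM (60.3 ± 6.03), and the log2 ratio of coding Vegfb to coding Vegfa was 1.62 ± 0.21, an alternative chosen after the values were seen. Vegfb had 0.280 ± 0.0971% of its TPM on such entries. They took 41.9 ± 1.42% of Vegfa TPM in the second table, and in both tables Vegfa was the member with the largest such share. In total RNA, reads of unspliced RNA could count toward retained-intron entries, and their part in these shares was not tested.

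The remaining ligands were scarce. Vegfc, the main growth factor of lymphatic vessels (chr8:54077606-54187096, plus strand), was at 2.48 and 2.62 TPM, from 135 and 193 counts. Pgf, a ligand of Flt1 alone among the kinases (chr12:85166635-85177790, minus strand), was at 2.34 and 2.08 TPM, from 106 and 107 counts. The Vegfc and Pgf values did not overlap but were close. The bounds the authors deposited for each value, whose coverage is not given, were 1.91 to 3.44 TPM for Vegfc and 1.95 to 2.89 TPM for Pgf in mouse 1, and in the second transcript table the 2 genes overlapped, so their order is not settled.

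Vegfd, the second lymphatic ligand (chrX:164373378-164402650, plus strand), was at 0.68 and 0.55 TPM, from 41 and 38 counts. Vegfc exceeded it 3.65-fold and 4.76-fold by TPM, 2.06 ± 0.27 on the log2 scale. Vegfa exceeded Pgf 41.4-fold and 38.1-fold. Of the summed ligand TPM (282 and 277), Vegfb made up 66.6 ± 4.04% and Vegfa 31.5 ± 4.00%, while Vegfc, Pgf and Vegfd made up 0.914 ± 0.0473%, 0.791 ± 0.0556% and 0.220 ± 0.0301%.

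The receptor kinases of blood endothelium were close to each other. Flt1, the high-affinity receptor for Vegfa, Vegfb and Pgf, was at 31.5 and 33.8 TPM, and Kdr (chr5:75932827-75978458, minus strand), the main signalling receptor for Vegfa, at 31.4 and 29.95 TPM. Flt1 was the higher in both mice, by 0.09 ± 0.12 on the log2 scale (Kdr over Flt1, -0.092), which is within the spread between the mice. The order turned when only coding transcripts were counted (0.089 ± 0.091, an alternative added after the values were seen) and in the second transcript table (0.0016 ± 0.084). Levels of Flt1 and Kdr were therefore not separable.

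The full-length transcripts alone gave a clearer order. Flt1-202, with 30 exons and 1333 codons, was at 20.5 and 21.2 TPM, and Kdr-201, with 30 coding exons and 1345 codons, at 30.3 and 29.5 TPM. In the second table they were at 22.7 and 23.8 TPM against 32.1 and 31.6 TPM. Both Kdr values lay above both Flt1 values in each table, so full-length Kdr exceeded full-length Flt1 in both mice, a comparison also made after the values were seen.

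Flt4, the receptor for Vegfc and Vegfd on lymphatic endothelium (chr11:49609263-49652739, plus strand), was at 4.07 and 4.68 TPM. Kdr exceeded it 7.71-fold and 6.40-fold and Flt1 7.74-fold and 7.23-fold. Flt4 made up 6.46 ± 0.535% of the summed TPM of the 3 kinases, against 48.3 ± 1.66% for Flt1 and 45.3 ± 2.19% for Kdr. It carried its TPM almost wholly on Flt4-201, its coding transcript, with 4.64 ± 1.43% on a noncoding entry of 7 exons.

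The neuropilins differed by more than 5-fold. Nrp1 (chr8:128358604-128503363, plus strand), the co-receptor for VEGF164 on arterial and other blood endothelium, was at 43.2 and 44.0 TPM, and Nrp2, which is known from veins and lymphatics, at 7.55 and 7.93 TPM. The ratio was 5.72 in mouse 1 and 5.54 in mouse 2, 2.49 ± 0.03 on the log2 scale, with the smallest SD of the 8 ratios computed. By counts not divided by length it was 1.65 ± 0.03. Nrp2 overlaps the antisense gene Gm29083 and the entry Gm37121 in the annotation, and whether counting used strand is not stated, so some Nrp2 reads may be theirs. Nrp1 contains the miRNA gene Mir1903, and the other 8 genes overlap no annotated gene.

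The 9 neighbouring pairs in the order Vegfb, Vegfa, Nrp1, Flt1, Kdr, Nrp2, Flt4, Vegfc, Pgf and Vegfd did not overlap between the mice in the gene table. For Flt1 and Kdr and for Vegfc and Pgf the ranges overlapped or turned in the second table and among coding transcripts, and the other 7 pairs kept their order and stayed apart in both. Summed over each role, the ligands were at 279 ± 3.63 TPM, the kinases at 67.7 ± 1.07 TPM and the neuropilins at 51.3 ± 0.799 TPM. Ligands exceeded kinases 4.21-fold and 4.04-fold by TPM, but by counts not divided by length the log2 ratio was -0.019 ± 0.032, where the longer kinase transcripts gather more reads each.

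By the transcript estimates, VEGF164 was the leading Vegfa form and VEGF188 the next. In the first transcript table, VEGF164 held 51.5% of coding Vegfa TPM in mouse 1 and 57.0% in mouse 2 (54.2 ± 3.88%), VEGF188 25.6% and 28.3% (26.9 ± 1.88%) and VEGF120 16.3% and 14.7% (15.5 ± 1.16%). The ranges of these 3 forms over the mice did not overlap. The leading entries of VEGF164, VEGF188 and VEGF120 have 3451, 1973 and 2765 bases, of which 1104, 1176 and 438 are annotated as coding. The annotated coding parts of the VEGF164 and VEGF188 entries begin upstream of the start codon of the VEGF120 entry. Counted from that start codon, by which the forms are named, the 3 have 190, 214 and 146 codons. How far the unequal lengths of these entries, in and outside the coding part, set the shares was not tested. In the second table VEGF164 was at 52.7 ± 5.32% and VEGF188 at 27.3 ± 2.83%, while VEGF120 was at 17.6% in mouse 1 and 7.44% in mouse 2.

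VEGF144, which would carry exon 6 without exon 7, could not be measured reliably. It was at 6.58% of coding TPM in mouse 1 and 0.0714% in mouse 2 in the first table, and at 4.18% and 10.8% in the second, so the mice changed order between tables. These values rest on 54.5 and 0.57 expected counts in the first table and on 18.9 and 49.3 in the second, and the bounds the authors deposited for its level in mouse 1 ran from 0.603 to 8.40 TPM. VEGF182, a variant of VEGF188 with a shorter exon 6 part, was listed at 0 counts in both mice and both tables; 3 counts would have been 0.0517% of the Vegfa counts in mouse 1 and 0.0502% in mouse 2. The upper bounds the authors deposited for it were wider, 1.78 and 1.33 TPM, beside coding Vegfa at 64.6 and 56.0 TPM.

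The same transcript estimates were also summed by the parts each entry holds, without counting reads over exons. Entries with the exon 7 part printed above held 81.1 ± 5.76% of coding Vegfa TPM, and those with the exon 6 part 30.3 ± 2.72%. Most coding transcripts thus held the exon 7 part, with its 9 basic codons, and 28.3% to 36.1% held the denser exon 6 part over both mice and both tables, a range that includes the unreliable VEGF144. By estimated counts the exon 6 part was in 18.9 ± 0.198% in the first table and 19.7 ± 1.87% in the second. By estimated counts, which favour the long Vegfa-202 entry of VEGF164 (3451 bases), VEGF164 reached 66.1 ± 1.95% and VEGF188 18.3 ± 0.517%. The order of these forms was the same.

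**Figure D2:**
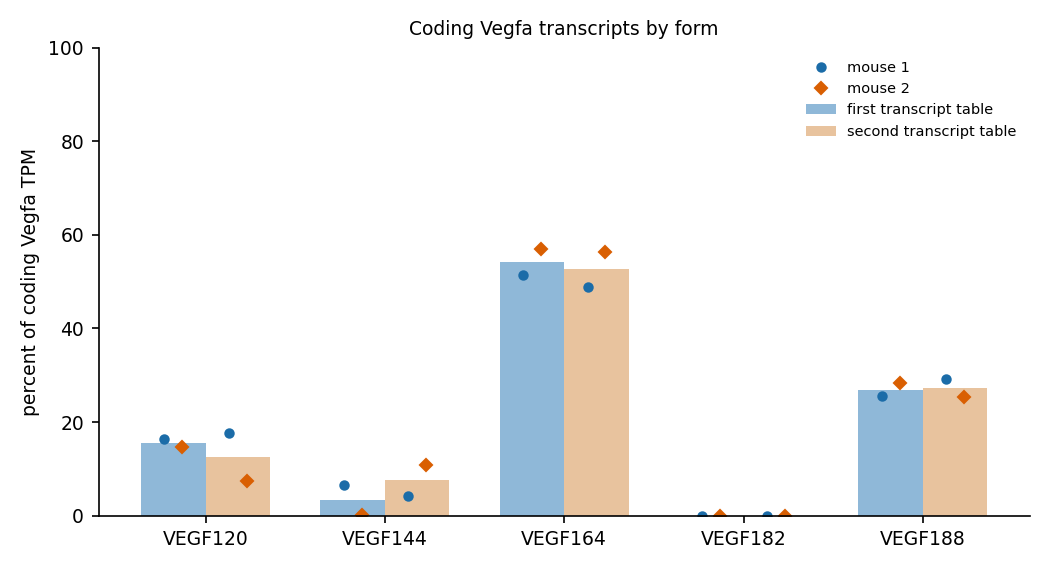
Share of coding Vegfa TPM on each form, in percent; bars are the mean of 2 mice in the first (blue) and second (tan) transcript table, blue circles mouse 1 and orange diamonds mouse 2. VEGF164 is highest in both mice and both tables, VEGF188 follows, and the mice trade places for VEGF144.

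Of all Vegfa TPM, the retained-intron entries Vegfa-206 and Vegfa-209 held 14.4 ± 3.98% and 12.5 ± 1.37%, next to 37.3 ± 4.16% on Vegfa-202, the VEGF164 entry and the leading transcript. The entries Vegfa-208 and Vegfa-210 were at 2.57 and 2.24 TPM and at 0 and 2.78 TPM in the first table, and at 6.66 and 16.5 TPM and at 3.60 and 7.70 TPM in the second. Vegfa-205 was at 0 in both mice in the first table and at 6.35 and 0.231 TPM in the second. The tables did not give the same account of these short entries, whereas Vegfa-202 was at 33.2 and 31.9 TPM in the first and 32.4 and 36.7 TPM in the second. The coding entries Vegfa-211, Vegfa-212 and Vegfa-213 were at 0 in both mice in the first. In the second, they were at 0.0670 and 0 TPM, at 3.52 and 0 TPM and at 1.23e-05 and 0 TPM.

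Vegfb was split between VEGFB167, which binds heparan sulfate and stays near the cell, and the freely diffusing VEGFB186. VEGFB167 was at 111 and 118 TPM and VEGFB186 at 68.3 and 73.6 TPM. Their shares of coding Vegfb were 61.7 ± 0.219% and 38.3 ± 0.219% in the first table and 61.3 ± 2.45% and 38.7 ± 2.45% in the second. The VEGFB167 values were the higher in each mouse and each table.

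The soluble form of Flt1, a trap for Vegfa, Vegfb and Pgf, made up 24.8% to 26.9% of coding Flt1 TPM in the 2 mice and both tables. Flt1-203, with 13 exons and 688 codons and the tail printed above, was at 6.75 and 7.81 TPM, 24.8% and 26.9% of coding Flt1 TPM (25.9 ± 1.49%). In the second table the share was 24.9% and 26.8% (25.9 ± 1.38%), and by counts 24.1 ± 1.42%. Between the tables the TPM share moved by less than the spread between the mice, but both tables describe the same libraries. Of the 6292 bases of Flt1-203, 2064 are coding, and its end lies in an intron of the full-length form. In total RNA, reads of unspliced RNA from that intron could count toward Flt1-203. Their part in the share was not tested.

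A second shortened entry, Flt1-201, has 12 exons, ends in an intron and is annotated without a coding sequence. It was at 3.79 and 4.29 TPM in the first table but at 1.12 and 0.491 TPM in the second. With it, truncated transcripts held 34.6 ± 1.64% of all Flt1 TPM in the first table and 27.4 ± 0.348% in the second. Of all Flt1 TPM, Flt1-201 held 12.3 ± 0.462% in the first table and 2.50 ± 1.45% in the second, and the soluble coding form 22.2 ± 1.18% and 24.9 ± 1.79%.

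Nrp1 showed no coding short form among its 4 annotated transcripts. Nrp1-201, with 17 exons and 923 codons, was at 39.7 and 41.2 TPM. The 3 entries that hold the start but not the last coding exon, Nrp1-203, Nrp1-202 and Nrp1-204, are retained-intron entries of 3, 4 and 8 exons and were at 2.26 and 1.80 TPM, at 0.66 and 0.45 TPM and at 0.64 and 0.50 TPM. Together they held 8.24% and 6.26% of Nrp1 TPM in the first table and 13.4% and 10.7% in the second. Soluble neuropilin forms made by reading into an intron are known, but these entries carry no annotated coding sequence, so protein cannot be assigned to them. Reads of unspliced RNA could count toward these entries too, and their part was not tested.

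Nrp2 was mostly of the a type, whose cytoplasmic end binds PDZ proteins as that of Nrp1 does. Transcripts with the Nrp2a end held 71.9% and 73.9% of coding Nrp2 TPM (72.9 ± 1.36%) and those with the Nrp2b end 28.1% and 26.1% (27.1 ± 1.36%). The leading transcript, Nrp2-204, has the a end without the optional exon and was at 3.15 and 3.44 TPM, followed by the b form Nrp2-205 at 1.97 and 1.81 TPM and the a form Nrp2-202, with the exon, at 1.33 and 1.85 TPM. The exon of 51 bases printed above was in 20.5% and 27.2% of coding TPM, and the insert of 15 bases in 8.12% and 4.83%. The second table gave 23.9% and 28.7% for the exon and 8.11% and 6.34% for the insert. The retained-intron entry Nrp2-207 was at 0.52 and 0.47 TPM. Nrp2-203, an a form with the insert, was at 0.46 and 0.04 TPM. The bounds the authors deposited for it in mouse 1 were 0.0216 to 1.65 TPM. Those of Nrp2-204 in mouse 1, 1.57 to 3.62 TPM, overlapped those of Nrp2-205, 1.66 to 2.17 TPM. By these bounds, the share with the insert and the order of Nrp2-204 and Nrp2-205 are not settled.

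**Figure D3:**
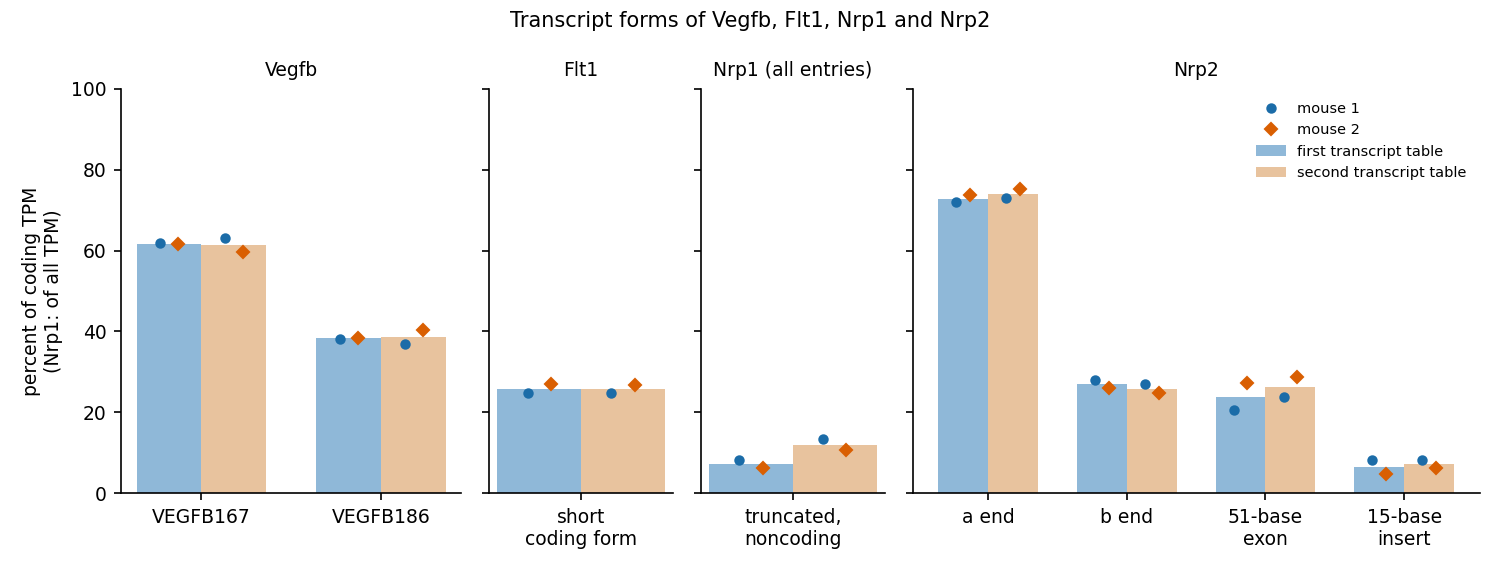
Share of TPM, in percent, on the forms of Vegfb, Flt1 and Nrp2 (of coding TPM) and on the truncated noncoding entries of Nrp1 (of all Nrp1 TPM); bars are means of 2 mice in each transcript table, points the mice. The soluble Flt1 share is 25.9% in both tables, and the Nrp1 entries are at 7.25% in the first table and 12.0% in the second.

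The transcripts of Kdr, Vegfc, Vegfd and Pgf were simpler or too thinly covered. Kdr-201 held 97.5 ± 1.44% of Kdr TPM. Vegfd-201 held all Vegfd TPM in the first table, and Pgf-201 was at 2.28 and 1.97 TPM. Pgf-204, with 162 codons against 158, was at 0 in the first table and at 0.622 and 0.551 TPM in the second, and the noncoding Pgf-202 was at 0 and 0.11 TPM in the first and at 0 and 0.388 TPM in the second. For Vegfc, the full-length Vegfc-201 was at 1.70 and 2.28 TPM, while the short coding entry Vegfc-203 was at 0.78 and 0 TPM from 10.97 and 0 counts, and the noncoding Vegfc-202 at 0 and 0.34 TPM. A noncoding Vegfd entry, Vegfd-202, was at 0 in the first table and at 0 and 0.0876 TPM in the second.

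The genes around the VEGF members were read from lists. Of the oxygen-sensing genes that control Vegfa, 8 of 10 were at 1 TPM or more in both mice, with a median of 19.4 TPM. The prolyl hydroxylase Egln1 was highest at 141 ± 3.29 TPM, then Epas1, which encodes the hypoxia factor HIF-2 alpha, at 103 ± 4.65 TPM and the hydroxylase Egln3 at 28.3 ± 1.32 TPM. Arnt2, a partner of hypoxia factors best known from brain, was at 0.14 and 0.35 TPM. Hif3a, named after its values were seen, was at 0.64 and 1.16 TPM.

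All 29 genes of the kinase cascades below the receptors were at 1 TPM or more in both mice, with a median of 18.0 ± 0.318 TPM. The highest were the small heat-shock protein gene Hspb1 at 181 ± 14.9 TPM, Mapkapk2, the kinase that phosphorylates its product, at 133 ± 8.51 TPM, and the GTPase gene Rac1 at 86.4 ± 3.13 TPM. These genes act below many receptors and in cardiomyocytes, so their levels do not speak of VEGF receptors alone.

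Of the genes that modulate VEGF receptors, 13 of 15 were at 1 TPM or more, with a median of 8.82 ± 0.580 TPM. Egfl7, a secreted endothelial protein, was at 47.6 ± 7.18 TPM, the chaperone gene Pdcl3 at 27.1 ± 4.11 TPM and the calcineurin inhibitor Rcan1 at 26.8 ± 3.71 TPM. Esm1, which marks sprouting endothelial tips, was at 0.34 and 0.36 TPM, and Itgb3, named after its values were seen, at 1.77 and 0.90 TPM.

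Of the genes that process VEGF proteins or bind them in the matrix, 10 of 14 were at 1 TPM or more, with a median of 5.12 ± 0.767 TPM. The lysosomal protease gene Ctsd was at 374 ± 8.46 TPM, and the heparan sulfate proteoglycan genes Gpc1 and Hspg2 at 196 ± 3.61 and 66.0 ± 1.05 TPM. The convertase gene Pcsk5 was at 0.79 and 0.71 TPM and the protease gene Adamts14 at 0.26 and 0.35 TPM. Klk1 had 0 and 2 counts and Plg, the liver gene for plasminogen, 1 and 0. Ccbe1 and Adamts3, which together activate the Vegfc protein and were named after their values were seen, were at 3.61 and 3.08 TPM and at 1.35 and 2.03 TPM, close to Vegfc itself.

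Of the semaphorins and plexins that share the neuropilins, 9 of 12 were at 1 TPM or more, with a median of 5.48 ± 0.343 TPM. The plexin gene Plxnd1 was at 23.9 ± 1.96 TPM, Sema3b at 9.27 ± 0.0141 TPM and Plxna2 at 8.95 ± 0.410 TPM. Sema3a, a repulsive ligand of Nrp1, was at 0.53 and 0.55 TPM, Plxna3 at 0.33 and 0.25 TPM and Sema3e, the ligand of Plxnd1, at 0.09 and 0.07 TPM. Each of the semaphorins named here was thus below Nrp1 in both mice, and Sema3b alone of them was above Nrp2.

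Of the angiopoietin, Notch and apelin genes, 9 of 10 were at 1 TPM or more, with a median of 10.2 ± 0.658 TPM. The endothelial receptor genes Tie1 and Tek were at 23.6 ± 0.856 and 15.2 ± 0.346 TPM, below Flt1 and Kdr in both mice, and Angpt1, the ligand of Tek, was at 12.3 ± 1.64 TPM. Angpt2, the ligand released during vessel remodelling, was at 0.63 and 0.67 TPM, at the level of Vegfd. The share of genes at 1 TPM was above the 49.8% of all protein-coding genes in each of the 6 lists. The median over all 10 VEGF genes, 19.2 TPM, was close to those of the hypoxia and kinase lists and above those of the other 4 lists.

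**Figure D4:**
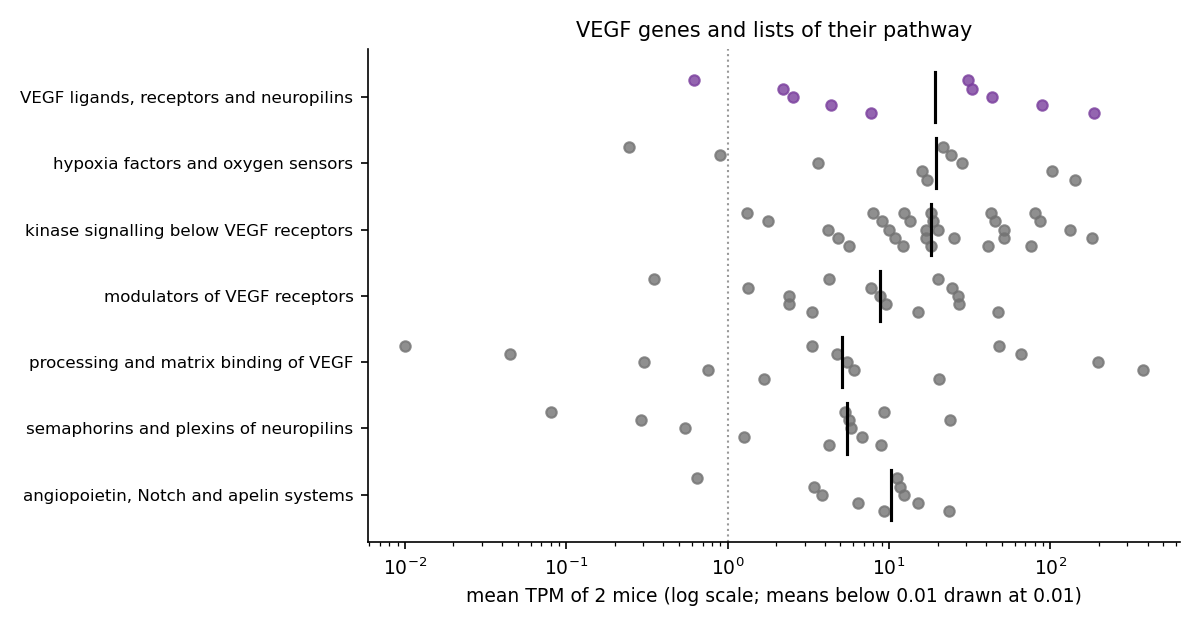
Mean TPM of 2 mice on a log axis for the 10 VEGF genes (purple) and 6 lists of pathway genes (grey); each point is a gene, black bars are medians over all listed genes and the dotted line is 1 TPM. The kinase list is the only pathway list with no gene below 1 TPM.

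The receptors were set beside markers of the cells known to carry them. The 10 endothelial markers ranged from 7.975 to 47.6 TPM with a median of 23.5 TPM, Egfl7 highest, and Flt1, Kdr and Nrp1 lay inside that range and above its median. The 6 lymphatic endothelial markers ranged from 1.27 to 20.7 TPM with a median of 6.05 TPM, Ccl21a highest, and Flt4 lay inside that range and below its median. The 3 endocardial markers had a median of 11.8 TPM, Npr3 highest at 13.6 TPM. Fibroblast markers had a median of 11.8 TPM with Dcn highest at 145 TPM, pericyte and smooth muscle markers 12.7 TPM with Rgs5 highest at 106 TPM, macrophage markers 6.39 TPM with C1qa highest at 18.1 TPM, and mesothelial markers 6.01 TPM with Upk3b highest at 6.73 TPM. Which of these cells the VEGF transcripts came from was not measured.

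The VEGF genes with enough counts were within 25% of each other in the 2 hearts. Ratios of mouse 2 to mouse 1 were taken from counts scaled by edgeR's trimmed mean of M-values (TMM), in genes averaging 50 or more expected counts, as 9 of the 10 did. None of the 9 was 25% or more higher in either mouse, where 7.8% of 12454 genes were, and none was 2-fold apart, where 0.57% were. Of the 9, 5 were higher in mouse 2 and 4 in mouse 1, with a median log2 ratio of 0.02 against 0.01 over all these genes. Their median absolute log2 ratio was 0.11 against 0.08, and at that background 0 of 9 is no result about these genes.

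Vegfa was 1.14-fold higher in mouse 1, at -0.19 on the log2 scale with an exact 95% counting interval of -0.24 to -0.14, and 19.3% of the genes compared were at least as far apart. Kdr was at -0.11 (-0.16 to -0.05) and Flt4 at 0.16 (0.03 to 0.30), and the intervals of both left 0 out. Vegfc was at 0.28 (-0.04 to 0.61) and Pgf at -0.22 (-0.62 to 0.18), and both intervals held 0. Vegfb, Flt1, Nrp1 and Nrp2 lay between -0.02 and 0.05, each with an interval that held 0. Vegfd, under the count filter, was at -0.34 (-1.02 to 0.33), over 25% higher in mouse 1; 25% or more in either direction was seen in 17.7% of genes averaging 10 or more counts and in 40.3% of genes with any count. These intervals cover counting error only, and with 1 library a mouse they do not show that the animals differ. The reads carry no molecular identifiers, so duplicate reads are not set apart and the intervals may be too narrow even for counting error.

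Scaled by the spike-in totals, which move the median of all genes by 0.17 toward mouse 2, the Vegfa ratio was -0.02, the Kdr and Nrp1 ratios turned sign, to 0.07 and 0.15, and Vegfc and Flt4 were more than 25% higher in mouse 2, at 0.45 and 0.34. With that scaling 13.8% of all genes compared were 25% or more higher in either mouse, against 7.8% with TMM. Markers of other cells did differ between the hearts. All 5 red cell genes were higher in mouse 1, with a median log2 ratio of -1.76 and summed levels of 20347 against 6413 TPM, and 3 of 3 adipocyte genes with enough counts were higher in mouse 2, with a median of 0.91 and sums of 3.44 against 7.87 TPM. The summed endothelial markers were at 282.5 TPM in mouse 1 and 282.6 TPM in mouse 2, and their median log2 ratio was -0.02. The summed lymphatic endothelial markers were at 49.9 and 62.9 TPM with a median log2 ratio of 0.13. Of the 6, Ccl21a was over 25% higher in mouse 2 (0.40), and Lyve1 (0.21) and Prox1 (0.17) were higher by less. Ccl21a, Prox1 and Lyve1 were also the highest of the 6 in mean TPM and weigh most in the sum. Which cells their transcripts came from was not measured. The intervals of Reln (0.08), Pdpn (0.05) and Mmrn1 (-0.05) held 0. Of the 7 pericyte and smooth muscle markers, Acta2 (0.51) and Myh11 (0.37) were over 25% higher in mouse 2, and the sums were 262 and 290 TPM. Rgs5, Abcc9, Pdgfrb, Kcnj8 and Cspg4 lay between -0.02 and 0.05. The part of these markers in the VEGF ratios was not tested.

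**Figure D5:**
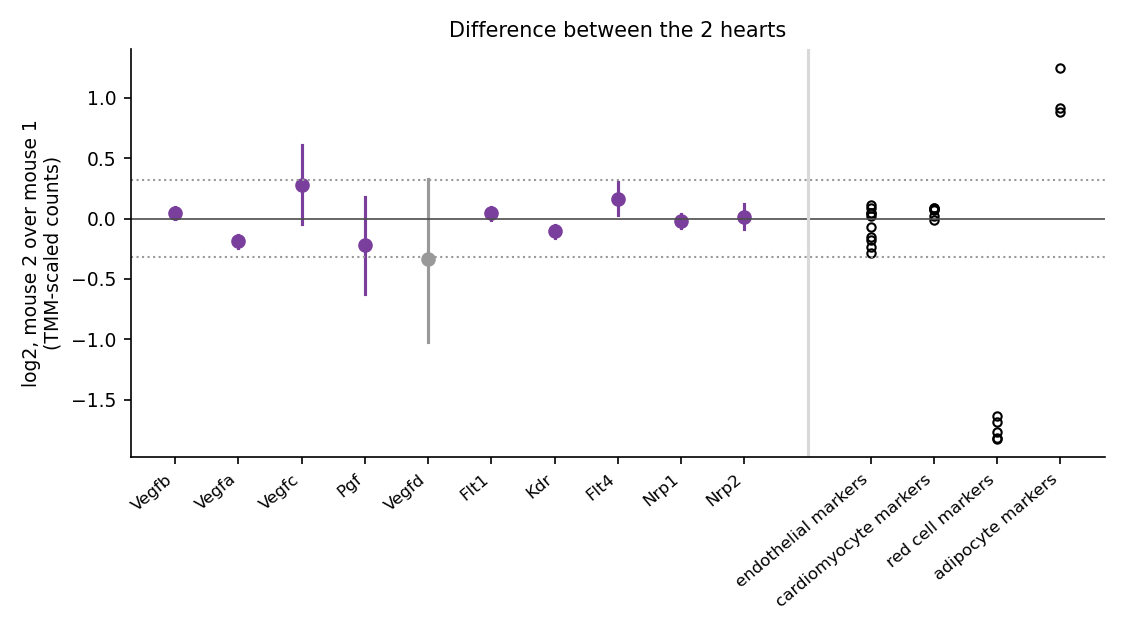
Log2 ratio of mouse 2 to mouse 1 of TMM-scaled counts; filled points are the VEGF genes with exact 95% counting intervals (Vegfd, under the count filter, in grey), open circles single marker genes, and dotted lines mark a value 25% higher in either mouse. All VEGF genes with enough counts lie between the dotted lines, whereas the red cell markers lie near -1.8 and the adipocyte markers near 1.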

How the data were processed

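Total RNA-seq of 2 mouse hearts was analysed from tables on mm10 with GENCODE M21, per the deposited file descriptions. Which aligner and quantifiers were run, with their versions, and whether strand was used is not given in the sources used here. Both the gene table and the first transcript table, with RSEM's column names, hold expected counts, TPM, posterior mean TPM, FPKM and bounds of TPM (a signal of unstated coverage) as deposited by the authors. The percent of a gene's TPM on a transcript, also deposited, was recomputed. The second transcript table, with kallisto's column names, holds estimated counts and TPM as deposited. Transcripts were classed from the annotation; a truncated one holds the full-length start codon but not the last coding exon. Expected counts were rounded for edgeR 4.0.16 TMM factors (DESeq2 1.42.0 size factors as an alternative), with a prior count of 0.5. Intervals are exact Clopper-Pearson at 95%. The calculation of ratios was checked on simulated counts. Spike-ins and entries with numeric identifiers (3 and 2 counts) were left out of library totals. Named genes were the 10 members, their transcripts with at least 5% of gene TPM and the coding transcripts of Vegfa, Flt1 and Nrp1, and in each pathway list the 3 highest genes and those under 1 TPM in both mice; marker lists are given by range, median and highest gene. The members and lists were chosen with earlier results of these data known. Alternatives were FPKM, posterior mean TPM, the second transcript table, counts not divided by length, a pseudocount of 1, coding transcripts only, other thresholds and scalings, and leaving out each mouse. Python 3.11.15, numpy 2.4.6, pandas 2.3.3, scipy 1.17.1 and R 4.3.3 were used.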

Additional observations from a re-analysis of the deposited data

How the results depend on the processing

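Of 111 alternative values for 15 results, 75 stayed within the spread between the mice or within 1.5 times a count, 32 moved further and 4 turned sign. Leaving out a mouse gives the other mouse's value, which with 2 mice always lies within 1 SD of their mean and so says nothing about stability. Ratios of FPKM equal ratios of TPM within a library apart from rounding, and the VEGF188 share was one of coding transcripts from the start. The 75 include all of these values, so that count is not a measure of stability. With the second transcript table the log2 ratios became 5.58 for Vegfa over Pgf, 0.0016 for Kdr over Flt1 (from -0.092, a turned sign), 2.74 for Flt1 over Flt4 and 2.30 for summed ligands over kinases, and truncated Flt1, truncated Nrp1 and the leading Vegfa transcript became 27.4%, 12.0% and 29.2%. With counts not divided by length they became 0.20 for Vegfb over Vegfa, 5.79 for Vegfa over Pgf, 1.65 for Nrp1 over Nrp2 and -0.019 for ligands over kinases (from 2.04, a turned sign), and the leading Vegfa transcript, VEGF188 and truncated Flt1 became 61.2%, 18.3% and 27.1%. A pseudocount of 1 gave 4.79 for Vegfa over Pgf, 1.14 for Vegfc over Vegfd, 2.56 for Kdr over Flt4, 2.65 for Flt1 over Flt4 and 2.35 for Nrp1 over Nrp2. Coding transcripts only, added after seeing the data for the ratios, gave 1.62 for Vegfb over Vegfa, 4.83 for Vegfa over Pgf, 0.089 for Kdr over Flt1 (a turned sign) and 2.75 for Flt1 over Flt4, and 54.2% for the leading Vegfa transcript, 25.9% for truncated Flt1 and 0% for truncated Nrp1. Coding transcripts of the second table, also added, gave 1.66 for Vegfb over Vegfa, 4.95 for Vegfa over Pgf, 1.76 for Vegfc over Vegfd, 0.023 for Kdr over Flt1 (a turned sign), 2.76 for Flt1 over Flt4, 2.38 for Nrp1 over Nrp2 and 2.11 for ligands over kinases. The count of members 25% or more higher in either mouse went from 0 to 2 with spike-in totals, and to 1 (Vegfd) with a mean count of at least 10 or no filter, while the share of all genes went from 7.8% to 13.8%, 17.7% and 40.3%. Where the construction of an alternative does not show the cause, the cause was not tested. Thresholds of 0.5 and 5 TPM put 10 and 6 members at that level in both mice. No paired analysis was possible because there is only 1 group. Depth limits Vegfd, Pgf, Vegfc and VEGF144, which rest on fewer than 200 counts in each mouse.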

Other observations

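The pathway genes 25% or more apart between the hearts are given here as values with no test, named after the values were seen, and 7.8% of all genes compared were as far apart in either direction. Of the modulators of VEGF receptors, 3 of 14 with enough counts were 25% or more higher in mouse 1, namely Itgb3 at a log2 ratio (mouse 2 over mouse 1) of -1.02, Ptprj at -0.36 and Rcan1 at -0.33. Of the processing and matrix genes, Thbs1, an inhibitor of vessel growth, was higher in mouse 1 (-0.61), and Adamts3 (0.56), Ccn2 (0.44) and Adamts14 (0.43, with a counting interval of -0.17 to 1.05 that holds 0) were higher in mouse 2, 4 of 12 with enough counts. Aplnr, the apelin receptor gene, was higher in mouse 1 (-0.38), 1 of 10 in its list. None of the hypoxia, kinase or semaphorin and plexin genes with enough counts was 25% or more higher in either mouse.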
